A study of Mus musculus with 4 samples.

Results

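The genes described here had a lower transcript signal in population 2 than in population 1 of differentiating mouse embryonic stem (ES) cells and a higher signal again in population 3. RNA was measured on 4 Affymetrix arrays, 1 for each cell population sorted on day 6 from Runx1 Venus/+ ES cells grown on OP9 stromal cells. The cells of every population carried a Venus reporter in 1 of their Runx1 alleles and were therefore heterozygous for Runx1, and no Runx1-wild-type or Runx1-null cells were among the arrays used here. Population 1 was sorted as Runx1-/VE-cadherin+/Flk1+, population 2 as Runx1+/VE-cadherin+/CD41-, population 3 as Runx1+/VE-cadherin+/CD41+ and population 4 as Runx1+/VE-cadherin-/CD41+. VE-cadherin is an adhesion molecule of endothelium, Flk1 is the main receptor of endothelium for the growth factor VEGF-A, and CD41 is an integrin that marks the onset of blood formation.

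A gene was kept when its signal fell at least 2-fold in population 2 relative to population 1 and rose at least 1.5-fold in population 3 relative to population 2. Signals below 100 were first raised to 100. Folds that involve such a raised signal are lower bounds and are written with "at least". Among the probe sets of a gene, the one brightest on average on the log2 scale was used. The rule kept 200 of 18194 genes, or 2.11% of the 9468 genes that exceeded 100 in any population, here called measured, and 3.1% of the 6455 genes that reached 200 in population 1. Of the 9468 genes, 4.19% passed the first step and 14.7% the second, and 50.4% of the 397 genes that passed the first step also passed the second. The rule used the arrays of populations 1, 2 and 3, so the fall and the rise are given as descriptions, and a single array for each population allows neither a test nor an error.

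In the early embryo, blood cells arise from cells with endothelial features, which switch on the transcription factor Runx1 and later lose the proteins that hold a vessel wall together. Caveolae, the SoxF transcription factors Sox17 and Sox18 and surface proteins such as endomucin belong to the endothelial side of this transition. Signalling proteins of platelets and leukocytes are known from its blood side. By these known roles, the 200 genes held members of both kinds. The roles do not say where a signal was highest. Some members with a blood cell role, such as Clec1b and Lcp1, had a higher deposited signal in population 1 than in population 4. Others, such as Ptp4a3, had a lower one.

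The deposited signals of the 4 arrays were not centred alike. Over the 9468 measured genes the median log2 ratio was 0.05 for population 2 over 1, 0.28 for population 3 over 2 and 0.07 for population 4 over 3, without raising low signals. A rise of 1.5-fold in population 3, which is 0.59 on the log2 scale at the threshold, therefore held part of a shift that most genes shared. After centring each array on its median, 112 of the 200 genes still passed both steps, and after quantile normalisation 111 did. All 200 remained lower in population 2 than 1 and higher in population 3 than 2 under both of these scalings. Centring shifted the ratios by less than the rule's thresholds, so under it no direction could reverse. The kept directions are therefore a description and no check of the members.

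Markers of the labelled cells were checked beside the 200 genes. In populations 1 to 4, Runx1 had signals of 55.3, 358, 1297 and 2440.2. The VE-cadherin gene Cdh5 had 5683, 3946, 4849 and 40.9. Kdr, the gene of Flk1, had 5866, 4496, 4834.5 and 905.7, and Itga2b, the gene of CD41, had 667, 1134.7, 2418 and 1609.5. The Itga2b transcript signal was thus above 100 also in population 2, which was sorted as CD41-. The summed signal of 9 endothelial markers, of which only Emcn is among the 200, was 29069.9, 19491, 23052 and 1855. The summed signal of 6 erythroid markers was 165, 277, 4528 and 46906, and that of 4 megakaryocyte markers was 734, 1202, 3077 and 3485. For the stromal cells of the co-culture, 9 markers summed to 3239, 1955, 1753 and 1429.9, with Col1a1, Pdgfra, Lum, Dcn and Thy1 below 100 in every population. For macrophages, 8 markers summed to 255, 337, 594 and 735, with 6 of them below 100 throughout. The stromal sum was highest in population 1, as were 160 of the 200 genes, but its value in population 3 was not above that in population 2. Its part in the fall was not tested. In sorted bulk RNA, fewer cells of a type and less RNA per cell cannot be told apart.

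**Figure D1:**
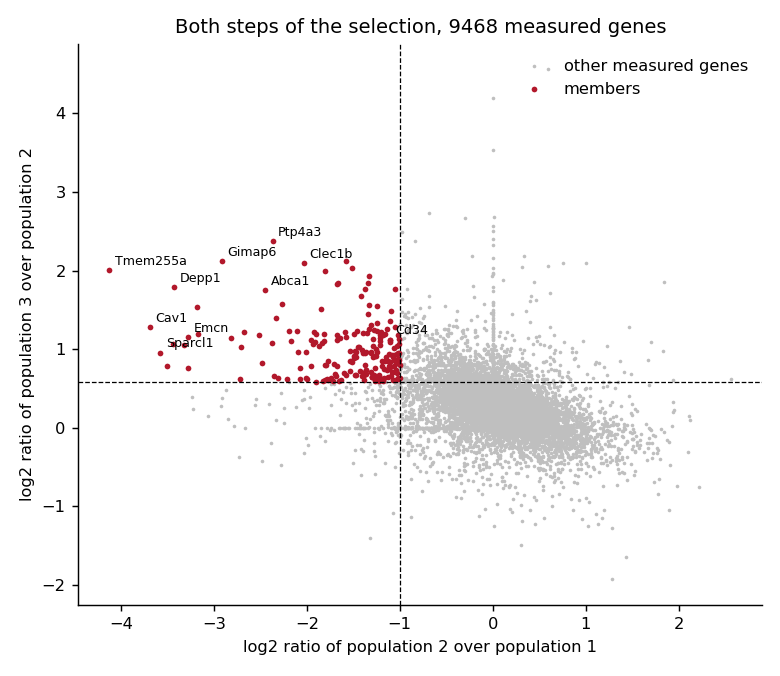
Each point is 1 of the 9468 measured genes, with the log2 ratio of population 2 over population 1 on the horizontal axis and that of population 3 over population 2 on the vertical axis, both after raising signals to 100. Red points are the 200 genes kept by the rule and the dashed lines are its 2 thresholds; Tmem255a lies farthest to the left at -4.12 and Ptp4a3 highest among the red points at 2.38.

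Over the 200 genes, the median signals were 827, 263, 500.05 and 169 in populations 1, 2, 3 and 4. The median log2 ratio of population 2 over 1 was -1.38, with values down to -4.12, and 36 genes were at least 4-fold lower. The median log2 ratio of population 3 over 2 was 0.94, with a range of 0.59 to 2.38, and 83 genes were at least 2-fold higher, of which 6 were at least 4-fold higher. In population 3, on the deposited scale, 111 genes were within 1.5-fold of population 1, 87 were at least 1.5-fold lower and 2 were at least 1.5-fold higher. The median gene had regained 64.9% of its log2 fall on that scale, which all shares regained given here use. After centring, the log2 ratio of population 3 over 1 was lower for each of the 200 genes, for instance -0.39 against -0.06 for Sox18. Of all measured genes, 5.33% were at least 1.5-fold lower and 22.1% at least 1.5-fold higher, and since the rule fixed both steps of the members nothing is read from the difference. Signals in population 3 were at or above those of population 1 for 28 genes on the deposited scale. The genes that the rule kept under other scalings held 9 of 117 such genes after centring, 9 of 113 after quantile normalisation and 79 of 302 after scaling on hybridisation controls. Of the 28 genes themselves, 21 were below population 1 after centring and as many after quantile normalisation, and 7 were not. The signal was highest in population 1 for 160 genes, in population 3 for 22 and in population 4 for 18, and it was lowest in population 4 for 138 genes and in population 2 for 62.

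The genes nearest to the thresholds show how narrowly membership was decided. Gaa (2.0015-fold), 2500002B13Rik (2.0017-fold) and Pon3 (2.0041-fold) lay just inside the limit for the fall. Slc41a1 (1.9983-fold), Btg2 (1.998-fold) and Nol4l (1.9958-fold) lay just outside it. For the rise, Dgkk (1.5009-fold), Kif26a (at least 1.5034-fold) and Hid1 (1.504-fold) were kept. Rgs3 (1.4922-fold), Gpx8 (1.4911-fold) and Slc29a4 (at least 1.491-fold) were not.

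**Figure D2:**
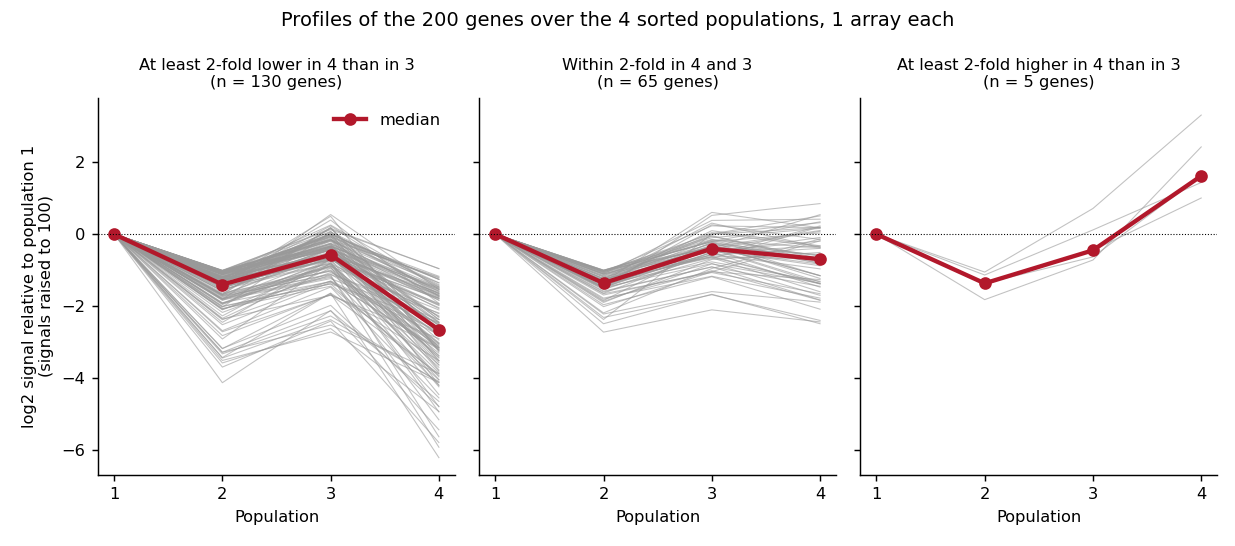
The log2 signal of each of the 200 genes relative to population 1 (vertical axis, signals raised to 100) is drawn over the 4 populations (horizontal axis), with 1 array each. Grey lines are genes and the red line is their median; the 3 panels hold the 130 genes at least 2-fold lower in population 4 than 3, the 65 genes within 2-fold and the 5 genes at least 2-fold higher.

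Genes of the endothelial cell surface and its caveolae were among the deepest falls. Caveolin 1 (Cav1), the main coat protein of these membrane pits, had 5513, 427, 1033 and 64.7 as its signals in populations 1 to 4. Its partner caveolin 2 (Cav2), the next protein-coding gene on chromosome 6, had 1471, 225, 457 and 20.99. Ehd2, an ATPase at the neck of caveolae, had 225, 111, 215 and 55.5. The fall was 12.9-fold for Cav1, 6.54-fold for Cav2 and 2.02-fold for Ehd2, and the rise in population 3 was 2.42-fold, 2.03-fold and 1.93-fold in the same order. Both caveolins therefore stayed below their population 1 signal in population 3, whereas Ehd2 came within 1.05-fold of it on the deposited scale. The coat component gene Cavin1, not a member, had 3482, 2137, 3390.3 and 174, and Cavin3 had 820.01, 112, 156 and 34.2. Of the 7 measured genes of the caveolae list, 5 were lower in population 2 and higher in population 3, a count that held under every scaling. Of all measured genes, 35.4% went this way on the deposited scale, 26.5% after centring, 27.8% after quantile normalisation and 41.3% after scaling on hybridisation controls.

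Endomucin (Emcn), a sialomucin of venous and capillary endothelium, had signals of 2498, 258, 571 and 7.28. Endocan (Esm1), a secreted proteoglycan of endothelial tip cells, had 2748, 305, 698 and 3.06. They were 9.70-fold and 9.01-fold lower in population 2 and regained 35.0% and 37.7% of the log2 fall. Robo4, an endothelial receptor of the Roundabout family, had 747, 146, 230.1 and 29.7, and Gpihbp1, which anchors lipoprotein lipase to capillaries, had 651, 125, 265 and 9.26. Cyyr1 had 1703, 157, 328 and 26.3, and the adherens junction protein gene Tmem204 had 3558, 1033, 1581 and 17.5. All of these ended below 100 in population 4.

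Other surface genes regained more of their log2 fall on the deposited scale. Cd34, a sialomucin shared by endothelium and blood progenitors, had 2950.1, 1367, 2974 and 257, so that population 3 was level with population 1 on this scale and lower after centring. Plvap, which forms the diaphragms of fenestrae and caveolae, had 3484, 1669.5, 2864 and 334. S1pr1, the main endothelial receptor for sphingosine 1-phosphate, had 762, 317, 596 and 138, and S1pr3, another receptor for the same lipid, had 209.9, 99.0, 163 and 142. Over the 7 alternatives of scaling, probe set and floor, S1pr1 was a member in all 7 and S1pr3 in 1. Clec1b, which encodes the platelet receptor CLEC-2 for podoplanin, had 2514, 616, 2627 and 951. It was 4.08-fold lower in population 2 and 4.26-fold higher in population 3 than 2.

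The chemokine receptor gene Cxcr4, expressed in arterial endothelium and in blood progenitors, had 1732, 173, 359 and 10.3, and the adhesion molecule gene Icam1, which binds leukocyte integrins, had 893, 127, 279 and 83.2. The matricellular protein gene Sparcl1 had 3032, 254, 493 and 0.945. The basement membrane gene Nid2 had 2334, 364, 843 and 49.97, and Ccn2, which encodes connective tissue growth factor, had 3059, 1103, 1749 and 39.5. These 5 genes ranged from a 2.77-fold fall for Ccn2 to an 11.9-fold fall for Sparcl1, and in population 4 each lay at least 2.79-fold below population 3. Of 25 measured basement membrane and matrix genes, 10 were at least 2-fold lower in population 2 than 1. At least 1.5-fold higher in population 3 than 2 were 3, and the members were Nid2, Sparcl1 and Ccn2. Of 17 measured arterial and Notch genes, 7 were lower and 1 higher by these measures, and Cxcr4 was the only member. The median log2 ratio of population 3 over 2 was 0.03 and 0.09 for these lists. Among 50 measured genes of the endothelial list, which holds none of the 5 genes above, 17 were at least 2-fold lower in population 2 than 1. Members were 10 of them, and of all measured genes 4.19% were lower and 2.11% were members. On the deposited scale 40 of the 50 were lower in population 2 and higher in population 3, against 23 after centring, 27 after quantile normalisation and 43 after scaling on hybridisation controls, beside the shares of all measured genes given for the caveolae. The list's median log2 ratio was -0.65 for population 2 over 1 and 0.30 for population 3 over 2, and the second of these was -0.01 after centring.

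The largest fall of all belonged to Tmem255a, a gene for a membrane protein. It had signals of 4314, 247, 993 and 4.40, which was 17.4-fold lower in population 2 than 1 and 4.013-fold higher in population 3 than 2. Its other 2 probe sets with a signal above 200 in population 1 passed both thresholds too. Depp1, a gene induced by progesterone and by FOXO transcription factors, had 7373, 686, 2366 and 30.9. S100a16, of the S100 calcium-binding family, had 1739, 153, 264 and 97.8, and regained 22.5% of its log2 fall, the least of the 200. The serine protease gene Prss23 had 3325, 342, 578 and 227, the sulfotransferase gene Chst1 had 1139, 126, 365 and 99.4, and the solute carrier gene Slc45a4 had 1399.97, 212, 326 and 259.

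**Figure D3:**
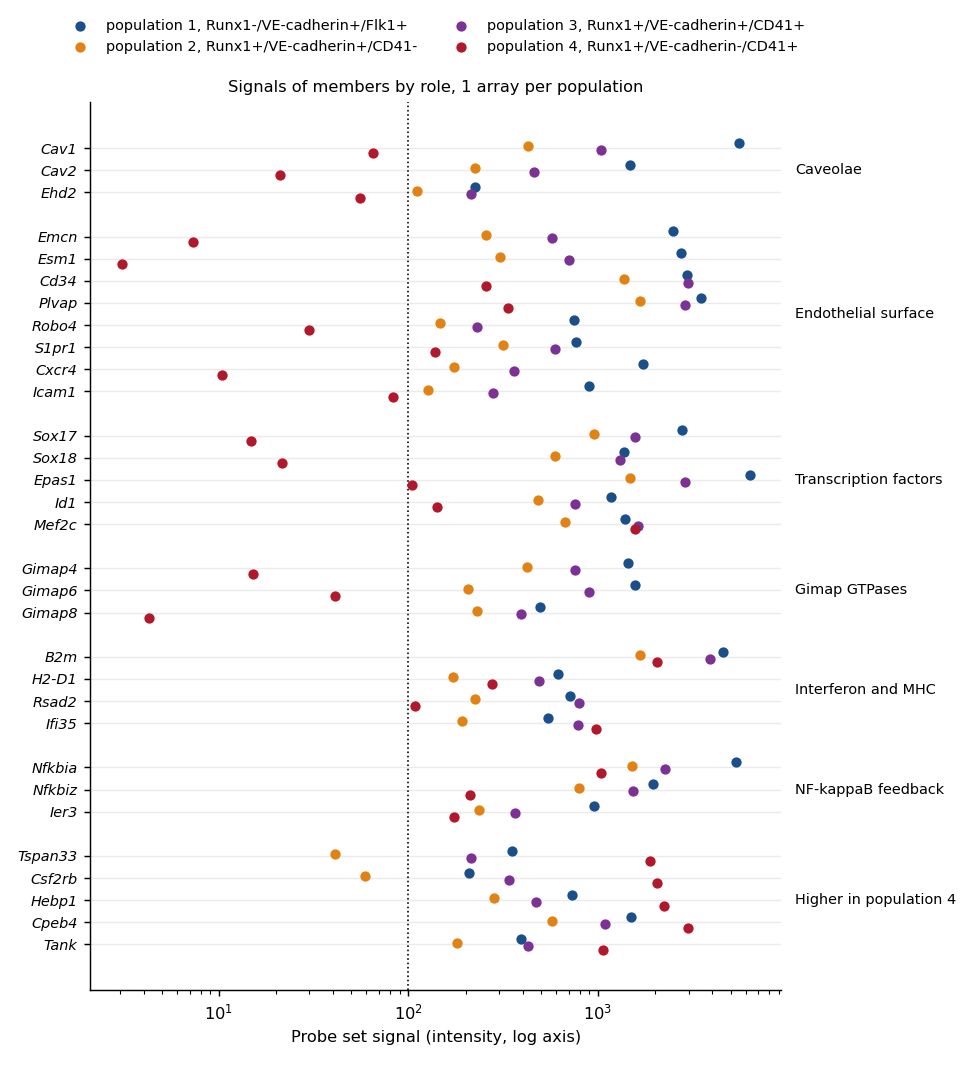
Probe set signals (horizontal log axis, intensity units) of 31 of the 200 genes, grouped by role, with 1 point for each population and a dotted line at a signal of 100; genes of the caveolae, endothelial surface and Gimap groups are mostly lowest in population 4, and levels are not comparable between genes. Population 2 (orange) lies to the left of populations 1 (blue) and 3 (purple) in every row, as the rule requires, while population 4 (red) lies between 3.06 for Esm1 and 2993 for Cpeb4.

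Of the transcription factor genes, Sox17 had signals of 2770.2, 955, 1572 and 14.7 and Sox18 had 1367, 592, 1309 and 21.6. Both encode SoxF proteins, which act in arterial and early blood-forming endothelium. Their fall was similar, 2.90-fold and 2.31-fold, but with the deposited signals Sox18 regained 94.9% of it on the log2 scale and Sox17 46.8%. The other SoxF gene, Sox7, was not a member and had 2331, 1686, 1119 and 30.4, with a log2 ratio of -0.59 for population 3 over 2. Epas1, which encodes the hypoxia-inducible factor HIF-2 alpha of endothelium, had 6299, 1479, 2869.8 and 104, and was 27.5-fold lower in population 4 than 3. No other gene among the 23 measured hypoxia and glycolysis genes was a member, beside 2.11% of all measured genes.

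Id1, an inhibitor of basic helix-loop-helix factors and a target of BMP signalling, had 1166, 484, 751 and 142. Its relatives Id2 (404, 120.4, 118 and 90.3) and Id3 (3142, 1518, 1319.6 and 55.1) were also more than 2-fold lower in population 2, with log2 ratios of -0.02 and -0.20 for population 3 over 2. Mef2c, a factor of cardiac, endothelial and blood cells, had 1387, 669, 1626 and 1569.9, and unlike the SoxF genes it was level between populations 4 and 3. Its 4 other probe sets with a signal above 100 were lower in population 2 and higher in population 3, and 1 of them passed both thresholds. None of the 22 measured genes of the haematopoietic transcription factor list was a member, beside 2.11% of all measured genes. At that share a list of this length often holds none.

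Several ligands and modifiers of vessel signalling were members, chosen for mention after their values were seen. Ephrin A1 (Efna1), a ligand of Eph receptors, had 4934, 1512, 2643 and 42.6, and was the only one of 7 measured ephrin genes kept by the rule. The arterial ligand gene Efnb2 had 6961, 5860.3, 5389.9 and 329. Manic fringe (Mfng), which modifies Notch receptors with sugar, had 1155, 385, 895 and 132. Pdgfb, the growth factor by which endothelium recruits pericytes, had 1349.8, 551, 1027 and 109, and Slit2, a guidance ligand, had 644, 268, 455 and 83.1. Endothelin-converting enzyme (Ece1) had 1814, 643, 1206 and 225. None of these 5 members was fully back at its population 1 signal in population 3, and each was more than 4-fold lower in population 4 than 3.

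The only cell cycle gene among the members was Cdkn1c, which encodes the cyclin-dependent kinase inhibitor p57. It had signals of 3451, 989, 1502 and 188. Of the list's 24 measured genes, 13 were at least 2-fold higher in population 2 than 1, against 2.92% of all measured genes. The median log2 ratio at this step was 1.08, against 1.03 to 1.06 under the other scalings. Lower in population 2 and higher in population 3 were 4 of the 24, beside 35.4% of all measured genes. Besides Cdkn1c these were the inhibitor genes Cdkn1a, Cdkn1b and Cdkn2a. Their log2 ratios were -0.30, -0.14 and -0.70 for population 2 over 1 and 0.35, 0.92 and 0.98 for population 3 over 2. No measured ribosome biogenesis gene (of 17) and no housekeeping gene (of 7) was a member. The rule kept 2.11% of all measured genes, a share at which lists this short often hold none.

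The Gimap genes encode GTPases of lymphocytes and endothelium that lie in a cluster on chromosome 6. Gimap6 had signals of 1557, 207, 898 and 40.9, Gimap4 had 1439.98, 423, 758 and 15.2, and Gimap8 had 492, 229, 393 and 4.26. Gimap6 thus fell 7.52-fold and rose 4.34-fold, more than its neighbours at both steps, and all 3 ended below 100 in population 4. Gimap4 and Gimap6 lie side by side with no other protein-coding gene between them, and 1 lies between Gimap8 and Gimap4. Of the other Gimap genes, Gimap1 had 197, 133, 256 and 17.8 without reaching the limit for the fall, Gimap9 exceeded 100 only in population 3 with 112, and Gimap3, Gimap5 and Gimap7 stayed below 100.

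Pairs of adjacent members were also found elsewhere. How many such pairs other sets of 200 measured genes would hold was not counted, so nothing is read from them. The members Rnf144a and Rsad2 on chromosome 12, Dennd3 and Slc45a4 on chromosome 15, Abca1 and Slc44a1 on chromosome 4, Rhog and Stim1 on chromosome 7, and Shroom4 and Dgkk on the X chromosome had no protein-coding gene between them. Ptp4a3 lay 1 gene from Slc45a4, and S100a13 1 gene from S100a16. Neighbours did not always share their behaviour in population 4. Slc44a1, a choline transporter gene, had 571, 219.9, 383 and 668. Its neighbour Abca1, which exports cholesterol to apolipoproteins, had 2156, 395, 1324 and 114.

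Genes of antigen presentation and of the interferon response formed a further group. Beta 2-microglobulin (B2m), the light chain of MHC class I, had signals of 4563, 1659, 3895 and 2049.6, and the heavy chain gene H2-D1 had 617, 172, 491 and 277. H2-K1, another heavy chain, had 963, 724, 1079 and 657 and was not a member, and array probes may read more than 1 of these similar genes. The antiviral enzyme viperin (Rsad2) had 714, 224, 797 and 108, and the interferon-induced gene Ifi35 had 545, 191, 781 and 980. Rsad2 and Ifi35 thus exceeded their population 1 signal in population 3 on the deposited scale, by 1.12-fold and 1.43-fold, and only Ifi35 of the pair still did after centring or quantile normalisation. Rsad2 was 7.38-fold lower in population 4 than 3, while Ifi35 was 1.25-fold higher. Of the 10 measured genes of the interferon and MHC class I list, 2 were members, beside 2.11% of all measured genes. In 8 of the 10 the signal was lower in population 2 and higher in population 3 under every scaling, which 26.5% to 41.3% of all measured genes also showed. The list's median log2 ratio for population 3 over 2 was 0.95 on the deposited scale, where that of all measured genes was 0.22. Ifit1, Ifit3 and Irf7, classical interferon-stimulated genes, were below 100 in every population.

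Some genes that feed back on NF-kappaB, a transcription factor of inflammation and stress, were also present. Nfkbia, its inhibitor, had signals of 5335, 1502, 2267 and 1032, and Nfkbiz, an atypical inhibitor, had 1957, 789, 1525 and 210.1. They were the members among 5 measured NF-kappaB inhibitor genes, and of the others Nfkbib and Nfkbil1 were higher in population 2 than 1, with log2 ratios of 0.31 and 0.24, and Nfkbie lay near 100 or below. Ier3, an early response gene, had 951, 236, 365 and 174, and Tank, an adaptor that binds TRAF proteins, had 394, 179.5, 427 and 1064. Nfkbia and Ier3 recovered little (32.5% and 31.3% of the log2 fall), while Tank came near its population 1 signal in population 3, above it on the deposited scale and below it after centring, and was highest in population 4. All 4 other probe sets of Nfkbia above 100 went the same way at both steps. Of the 20 measured immediate early genes, Ier3 and the phosphatase gene Dusp1 (3584, 1696, 2782 and 658) were members, beside 2.11% of all measured genes. On the deposited scale 18 of the 20 were lower in population 2, beside 41.4% of all measured genes, and 16 of them were higher in population 3, beside 35.4% that went both ways. The 16 became 12 after centring, 13 after quantile normalisation and 18 after scaling on hybridisation controls. Fos had 2871, 1307, 1395 and 496 and Jun had 3102, 2482, 3076 and 1297, neither a member.

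Promoter sequences from RefSeq (GRCm38.p6), reaching from 250 bases before to 50 bases after the gene start, were at hand for 149 of the 200 genes. The stretches below come from those members of the interferon and NF-kappaB groups that had a match, and are read on the gene's own strand. Capitals mark a match, on either strand, to the NF-kappaB consensus GGGRNNYYCC, where R is A or G, Y is C or T and N is any base.
Nfkbia, chr12:55492658-55492685, minus strand: gactggcttGGAAATTCCCcgcgcctga
Ier3, chr17:35821612-35821639, plus strand: gcgaagggcGGAGTTCCCCccggcccgg
H2-D1, chr17:35262914-35262941, plus strand: cccagggctGGGGATTCCCcatctcctc
Tank, chr2:61578538-61578565, plus strand: tttctcagtGGAAGTCCCCagttcaaca
Tank, chr2:61593016-61593043, plus strand: tttgtgggcGGGGCTTTCCtgcagaggc
B2m, chr2:122147552-122147579, plus strand: ctgaaaatgGGAAAGTCCCtttgtaacc
The next stretches, also on the gene's own strand, have in capitals a match to the interferon-stimulated response element (GAAA, any 2 bases, GAAA) on either strand.
B2m, chr2:122147539-122147566, plus strand: taagaacatGAAACTGAAAatgggaaag
Rsad2, chr12:26456554-26456581, minus strand: tggtccaacTTTCATTTTCagaaaacag
The Tank stretches lie before different annotated starts of the gene. The B2m stretches overlap, so that both matches lie within a few bases of each other. In H2-D1 a further NF-kappaB match overlaps the marked one, and its last base is printed in lower case. In the promoters at hand, no NF-kappaB match was found for Nfkbiz, Rsad2 or Ifi35. No response element match was found for Ifi35, H2-D1, Nfkbia, Nfkbiz, Ier3 or Tank. In the 250 bases before the start, an NF-kappaB match was present in 11.4% of the 149 genes, in 10.8% of 7765 measured genes with a promoter and in 8.23% of all 27025 genes with one, and a response element match in 4.03%, 2.83% and 3.46%. RUNX letters (TGTGGT or TGCGGT) were found in 18.1%, 20.7% and 20.9%, GATA letters (AGATAA) in 8.72%, 6.89% and 11.4%, ETS letters (CCGGAAGT) in 2.01%, 7.33% and 3.23%, and the hypoxia response core (ACGTG) in 20.1%, 26.1% and 18.5%. Both strands were searched, and overlapping matches were allowed. A match is a description of the letters, and its absence says only that the letters are not in this window.

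Several genes with known roles in blood cell signalling were among the largest rises. Ptp4a3, a phosphatase gene, had signals of 1251, 242, 1258 and 1559, with a 5.19-fold rise in population 3 over 2, the largest of the 200 once low signals were raised. Lcp2, which encodes the adaptor SLP-76 downstream of immune receptors, had 600.4, 202, 875 and 207. The adhesion receptor gene Adgre5 (CD97) had 1399, 550.3, 1972 and 146, and the serine/threonine kinase gene Stk10 of lymphocytes had 320.1, 127, 486 and 361. On the deposited scale all of these were at or above their population 1 signal in population 3, by 1.01-fold for Ptp4a3 to 1.52-fold for Stk10. Lcp2, Adgre5 and Stk10 stayed above it under every scaling, whereas Ptp4a3 was below it after centring and after quantile normalisation. After that, Adgre5 was 13.5-fold lower and Lcp2 4.22-fold lower in population 4 than 3, whereas Ptp4a3 and Stk10 were within 2-fold. On the deposited scale, Adgre5 and Lcp2 were also lower in population 4 than in population 1, and Ptp4a3 and Stk10 were higher. The actin-bundling gene Lcp1 (L-plastin), had 1391, 677, 1123 and 440.3. It was the 1 member among 13 measured genes of the myeloid list, of which 3 were lower in population 2, and Clec1b was the 1 member among 14 measured genes of the megakaryocyte list and the 1 that was lower there. Of all measured genes, 2.11% were members and 41.4% were lower in population 2.

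Jak3, the kinase of the common cytokine receptor gamma chain, had 322, 155, 311 and 106, and Fes, a myeloid and endothelial tyrosine kinase, had 329, 129, 295 and 70.4. Csf2rb, the shared beta chain of the receptors for IL-3, IL-5 and GM-CSF, had 208, 59.1, 339.8 and 2050.3. It exceeded its population 1 signal in population 3 under every scaling and was 6.03-fold higher in population 4 than 3, although a near-identical copy of this gene exists in mouse and its probes may read both. Apold1, an endothelial early response gene, had 944, 269.6, 1072 and 55.1, and the scaffold gene Slc9a3r2 had 878, 278, 995 and 129.7. On the deposited scale both rose above population 1 in population 3, whereas after centring and after quantile normalisation both stayed below it. In population 4 they were at least 7.67-fold lower than in population 3.

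Genes of adhesion and the cytoskeleton were another set, named after their values were seen. Paxillin (Pxn), an adaptor of focal adhesions, had 2970.1, 1308, 2955 and 1245, and beta-parvin (Parvb), which links integrins to actin, had 750.3, 165, 387 and 685. Shroom4 had 1052, 443, 1112 and 114 and Shroom2 had 1470.2, 556, 879 and 179, both encoding actin-binding proteins. Dock4 and Dock9 had 986, 195.2, 513 and 17.6, and 1528, 759.9, 1329.8 and 296. Pxn was back at its population 1 signal in population 3 on the deposited scale and below it after centring, and Parvb was the one of these genes that was higher in population 4 than 3, by 1.77-fold. The neuron navigator gene Nav3 had 482, 93.5, 297 and 23.3. Members were 2 of 7 measured Dock genes, 2 of 3 Shroom genes and 1 of 2 parvin genes, beside 2.11% of all measured genes. Lower in population 2 than 1 were 5, 3 and 2 genes of these families, and higher in population 3 than 2 were 5, 2 and 1. Among the others, Dock8 had 160, 208, 135 and 283 and Parva had 491, 358, 277 and 16.3.

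Genes of lipid handling included Abca1, with a 5.46-fold fall and a 3.35-fold rise, and Abca3, a phospholipid transporter, with 384, 136, 311 and 164. Lipoprotein lipase (Lpl) had 363, 116, 256 and 289, and the lipid droplet coat gene Plin2 had 1184, 459, 894 and 1249. These values were also chosen after they were seen. Abca1 was 11.6-fold lower in population 4 than 3, while the other 3 were within 2-fold.

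**Figure D4:**
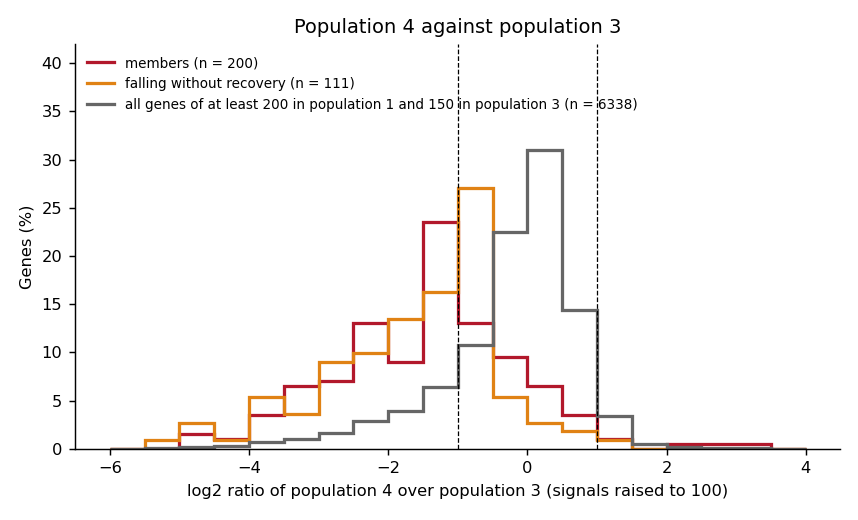
The horizontal axis is the log2 ratio of population 4 over population 3 with signals raised to 100, and the vertical axis is the percent of genes in each bin, for the 200 members (red), for 111 genes that fell in population 2 without recovery (orange) and for all 6338 genes with at least 200 in population 1 and 150 in population 3 (grey). Dashed lines mark 2-fold; 65.0% of the members, 62.2% of the genes without recovery and 17.3% of all such genes lie at or to the left of the left line.

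Population 4 was the array that the rule did not use, although its ratio to population 3 shares that population's array with the rule. Of the 200 genes, 130 were at least 2-fold lower in population 4 than 3, 65 were within 2-fold and 5 were at least 2-fold higher. This was 65.0% lower and 2.5% higher, against 17.3% lower and 4.12% higher among the 6338 genes with signals of at least 200 in population 1 and 150 in population 3. Over all 9468 measured genes the shares were 12.2% and 7.94%. The 111 genes that fell in population 2 without recovery, with the same minimum signals in populations 1 and 3 but a lower median in population 3 (403), gave 62.2% lower and 0.901% higher, so the share lower in population 4 was close in the members and in those genes. Signals below 100 in population 4 were found for 35.0% of the members, 55.0% of the 111 genes and 6.3% of the 6338 genes. The median log2 ratio of the members was -1.28 for population 4 over 3 and -1.81 for population 4 over 1, where 152 were at least 2-fold lower, against 12.9% of all measured genes. The rule selected the members for a high signal in population 1. Measured genes below 200 there could not fall 2-fold once signals were raised to 100, so nothing is read from this last difference. Compared with population 2, where the members were selected to be low, 67 (33.5%) were at least 2-fold lower still in population 4 and 27 (13.5%) were at least 2-fold higher. Of the 111 genes without recovery, 61 (55.0%) were lower and 2 higher by this measure, and of all measured genes 9.47% were lower and 14.4% higher.

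Among the 25 members at least 8-fold lower in population 4 than 3 were Epas1, Efna1 (at least 26.4-fold), Depp1 (at least 23.7-fold), Ccn2 (at least 17.5-fold), Tmem204 (at least 15.8-fold) and Sox17 (at least 15.7-fold). For all of these except Epas1 the signal in population 4 was itself below 100. In the other direction, the 5 genes at least 2-fold higher in population 4 than 3 were Tspan33, Csf2rb, Hebp1, Cpeb4 and Tank. Tspan33, a tetraspanin gene of erythroid progenitors, had 353, 40.8, 214 and 1889 and was 8.81-fold higher. The heme-binding protein gene Hebp1 had 731, 284, 471 and 2239 and was 4.75-fold higher. Cpeb4, a regulator of translation that acts in terminal erythroid differentiation, had 1494, 569, 1094 and 2993 and was 2.74-fold higher. The stress protein gene Hspa1b had 1523, 749, 1165 and 2216, and its probes may also read the near-identical Hspa1a. The summed erythroid markers were highest in population 4, as were Hspa1b and the 5 genes, and their part in these signals was not tested. Myadm, a marker gene of myeloid differentiation, was lowest there instead, with 4564, 2174, 3315 and 1281.

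**Figure D5:**
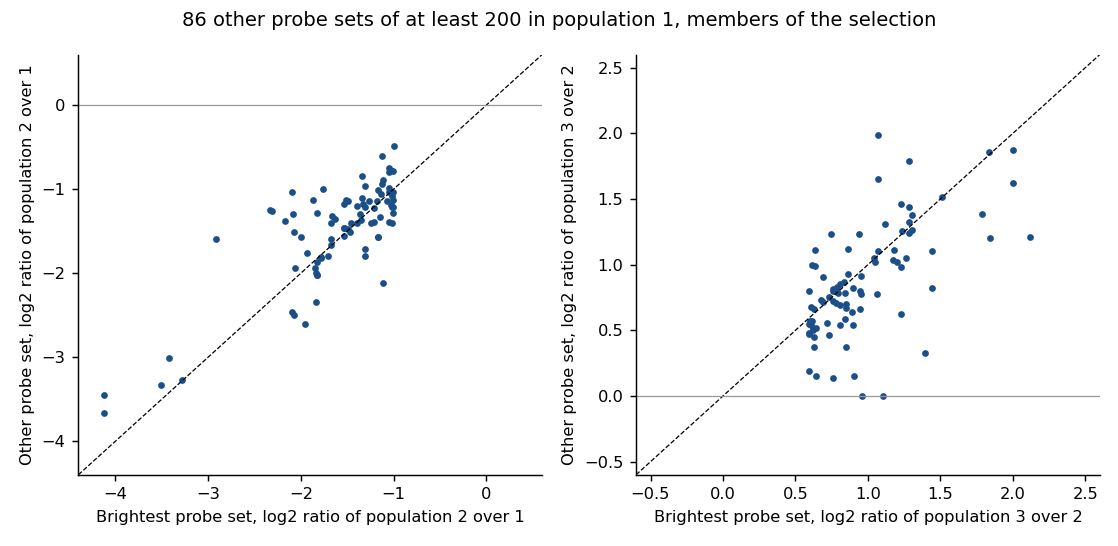
Each point is 1 of 86 further probe sets of the members with a signal of at least 200 in population 1, set against the gene's brightest probe set on the horizontal axis, for the log2 ratio of population 2 over 1 (left) and of population 3 over 2 (right). The dashed line is equality; 84 of the 86 points are below 0 on the left and above 0 on the right.

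Most genes were read by more than 1 probe set, which come from the same RNA and the same arrays and are not replicates. The members had 251 further probe sets annotated to them alone, of which 143 exceeded 100 in at least 1 population. Of these 143, 111 were lower in population 2 and higher in population 3, 54 passed both thresholds, and 0 went the opposite way at both steps. Among the 86 with a signal of at least 200 in population 1, which belong to 66 members, 84 went the same way and 54 passed both thresholds. For Cpeb4 a further probe set gave 509, 220.5, 385 and 1287, and for Efna1 another gave 2975, 856, 1546 and 1.09. Both repeat the shape of the brightest probe set, including its direction in population 4.

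A list of candidate Runx1 target genes, named by the study from Runx1 binding, was set beside the members as gene names only. Of its 575 measured genes, 11 (1.91%) were members, which is 5.5% of the members, and the list made up 6.07% of all measured genes. The 11 were B3gnt2, Dennd3, Hsd17b11, Lmna, Mef2c, Mrtfb, Paqr7, Parvb, Pxn, Sox17 and Tspan33.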

How the data were processed

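The authors hybridised RNA of the 4 populations to Affymetrix Mouse Genome 430 arrays and deposited 1 intensity per probe set and population, on a linear scale. The labels name MAS5 and GCOS 1.3 as their software. The scaling target is not given in the sources used here. Of 45101 probe sets, 34958 have 1 gene symbol in the array annotation, updated through GRCm38.p6 gene records; 932 with several symbols and 9211 without one, controls included, were left out. Log2 ratios used signals raised to 100. No test was possible, since precision is limited by having 4 arrays.

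The members, the 23 gene lists and the naming rule were chosen with earlier results of these data known. Named are members with at least 400 in population 1 among the 15 largest falls or rises, the 10 highest in population 4, list members, the 3 genes nearest each side of a threshold, and sort markers. Further names (families, neighbours, NF-kappaB, ligands, kinases, lipid and adhesion genes, non-members) and the motifs were chosen after values were seen. Alternatives were centring, quantile normalisation, averaging the probe sets of a gene, omitting shared probe sets, floors of 50 and 200, and stricter rules. Scaling on 18 hybridisation controls was added after seeing the data. The scripts were tested on simulated data. Python 3.11.15, pandas 2.3.3, numpy 2.4.6 and matplotlib 3.10.9 were used. Other arrays of the study were not used here.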

Additional observations from a re-analysis of the deposited data

How the results depend on the processing

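Membership depended on the scale between arrays. The rule kept 117 genes after centring, of which 72 were at least 2-fold lower in population 4 than 3, and 113 and 73 after quantile normalisation. With the mean over probe sets it kept 128 and 85, and with signals raised to 200 it kept 133. With the arrays scaled on hybridisation controls, which was tried after the data were seen, it kept 302 and 200, with a median log2 ratio of -0.27 for population 3 over 1 against -0.49 on the deposited scale. A rise of at least 2-fold left 83 genes and a fall of at least 3-fold left 71. Requiring the median of the other probe sets to reach 0.5 times each log2 threshold left 52. Members without another probe set could not meet this, nor could those whose other probe sets all stayed below 100. Only 97 members had another probe set above 100, so the genes lost are no count of disagreement between probe sets. Over the 7 alternatives of scaling, probe set and floor, 37 of the 200 genes were members in every one, among them Tmem255a, Cxcr4, Sox18, Epas1, Cd34, Clec1b, Ptp4a3 and Rsad2. Under the 3 scalings 105 were. The share at least 2-fold lower in population 4 than 3 lay between 60.9% and 70.7% over the same 7, and was 69.9% with the 2-fold rise and 74.6% with the 3-fold fall. With the mean over probe sets, 160 of the 200 genes were lower in population 2 and higher in population 3. Of 792 ratios of named members under the 7 alternatives, all of population 2 over 1 or 3 over 2, 0 changed sign. Of these ratios, 258 moved by more than 0.18 on the log2 scale, the median difference between probe sets of a gene. Centring and scaling on hybridisation controls each shifted all ratios of population 3 over 2 by more than this, save those with raised signals. Part of the 258 was therefore fixed by the scaling and does not describe single genes. A ratio brought to 0 by raised signals was not counted as a change of sign. Under centring the rule's thresholds left no room for one. Population 3 over 1 was less stable, since 21 of the 28 genes at or above population 1 fell below it after centring. No paired analysis was possible because each population has 1 array, and no replicate could be left out. Signals below 100 in population 2 (16 genes) and in population 4 (70 genes) give only bounds.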
